A study of Mus musculus with 10 samples.

Results

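This account concerns 10 genes of the IL-4 response in mouse macrophages, taken as a named set out of 21883 protein-coding genes placed on the genome: the receptor chain Il4ra, the lectins Mrc1, Clec10a and Mgl2, the secreted proteins Retnla, Chil3 and Chil4, the enzyme Alox15, the checkpoint ligand Pdcd1lg2 and the coactivator Ppargc1b. They were chosen by name for their place in alternative activation, with earlier results of these data known. What was read at each was the extent of H3K27me3, a repressive histone mark. Chromatin with this mark was sequenced from bone marrow-derived macrophages of C57BL/6 mice, grown for 7 days in M-CSF at 20 ng/ml. The cells were untreated (M0), exposed for 24 h to LPS at 20 ng/ml with interferon-gamma at 50 ng/ml (M1), or exposed for 24 h to IL-4 at 20 ng/ml (M2). All animals carried floxed Eif2ak3, which encodes the kinase PERK of the endoplasmic reticulum stress response. Wild type (WT) means Eif2ak3 fl/fl, and knockout (KO) means Eif2ak3 fl/fl with LysMcre, a Cre expressed from the lysozyme M locus of myeloid cells. M0 had 1 library per genotype, and M1 and M2 had 2 biological replicates per genotype, so a p-value here reflects only how far those cultures varied. The lists of called regions do not show the deletion, and the genotypes rest on the labels.

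IL-4 binds a receptor built around the chain encoded by Il4ra, and receptor-bound Janus kinases phosphorylate the transcription factor STAT6. STAT6 dimers then bind DNA and switch on genes of alternative activation, among them those for lectins, chitinase-like proteins and lipid-oxidising enzymes. H3K27me3 is written by Polycomb repressive complex 2, is erased by demethylases such as Kdm6b, and lies over genes held silent.

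At 7 of the 10 genes the RefSeq promoter table of GRCm38.p6, the assembly also called mm10, held 300 bases around the gene start, from 250 before it to 50 after it. Clec10a, Alox15 and Ppargc1b were not among its entries. Retnla is shown first because no library had a region near it and because its promoter holds a match to the STAT6-type motif, TTC and GAA with any 4 bases between them, in capitals. This motif is its own reverse complement, so both strands were searched at once. The Retnla promoter is on the plus strand of chromosome 16, positions 48842359 to 48842658.
Retnla: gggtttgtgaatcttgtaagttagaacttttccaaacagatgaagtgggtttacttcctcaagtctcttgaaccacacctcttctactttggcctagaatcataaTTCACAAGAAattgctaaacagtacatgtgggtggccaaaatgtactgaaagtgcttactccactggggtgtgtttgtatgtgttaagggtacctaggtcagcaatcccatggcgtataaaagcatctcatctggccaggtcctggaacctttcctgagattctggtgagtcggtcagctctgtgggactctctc
The match begins 145 bases before the gene start. Pdcd1lg2 held the other match among the 7 genes, 82 bases before its start, and 2284 of all 32851 promoters (6.95%) held 1 or more. A match is only a run of letters, and the remaining 5 promoters lack it in this window.

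Chil3 and Chil4 are shown because they are near-copies of each other with different cover. Both lie on the minus strand of chromosome 3, with promoters at 106167515 to 106167814 and at 106219430 to 106219729. Capitals mark bases without an identical partner in the alignment of the pair, including the ends that found no partner.
Chil3: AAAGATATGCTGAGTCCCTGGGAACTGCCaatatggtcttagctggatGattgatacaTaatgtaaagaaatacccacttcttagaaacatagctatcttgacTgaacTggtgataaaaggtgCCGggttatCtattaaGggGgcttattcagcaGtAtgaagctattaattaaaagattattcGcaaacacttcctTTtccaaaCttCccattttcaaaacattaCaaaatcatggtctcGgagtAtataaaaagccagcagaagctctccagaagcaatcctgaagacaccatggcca
Chil4: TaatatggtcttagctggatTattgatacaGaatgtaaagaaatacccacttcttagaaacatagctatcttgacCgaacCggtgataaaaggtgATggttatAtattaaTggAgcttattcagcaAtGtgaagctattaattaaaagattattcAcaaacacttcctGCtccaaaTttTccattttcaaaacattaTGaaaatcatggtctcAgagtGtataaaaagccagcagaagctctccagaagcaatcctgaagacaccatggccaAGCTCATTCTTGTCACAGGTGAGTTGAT
Of 271 aligned bases, 251 were identical (92.6%). Reads that fit both copies cannot be assigned with certainty, so values at Chil3 and Chil4 are uncertain to that extent, and how such reads were handled is not given in the sources used here. The Chil4 promoter lay fully under a called region in WT M1 replicate 2 and WT M2 replicate 1. None of the other 6 promoters was touched by a region in any of the 10 libraries. Polycomb domains in mammals often start at promoters dense in CpG dinucleotides, and the 7 promoters differed in these: Il4ra had 25, Mgl2 8, Mrc1, Chil3 and Pdcd1lg2 3 each, and Retnla and Chil4 2 each, against a median of 7.00 over all promoters.

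The libraries held 12.6 to 20.9 megatags and 32320 to 39658 called regions. The M0 libraries had the fewest megabases of autosomes under regions (156 and 176 Mb against 179 to 250 Mb) and an estimated fragment length of 352 and 372 bases against 178 to 190. M0 was therefore left out of the comparison of states and is given as values beside M1 and M2. The comparison of genotypes over all 10 libraries includes the M0 pair. An SD over the 5 libraries of a genotype thus also holds differences between states. WT M1 replicate 1 and WT M2 replicate 1 stood apart, with 31.3 and 52.9 Mb of the X chromosome under regions against 0.687 to 0.990 Mb in the other 8 libraries. WT M2 replicate 1 also shared least with its state, at a mean Jaccard index (shared over joint covered length) of 0.477 against 0.618 to 0.641 in the other M2 libraries. As checks of cell type, 10 of 12 macrophage markers had no region over the body in any library, Csf1r, Adgre1 and Spi1 among them, against 57.3% of all protein-coding genes. The others were Mertk, with up to 4.21%, and Cebpa, with up to 59.5%. Among 6 housekeeping genes, 5 also had no cover, so this property is not particular to macrophage genes. All 8 Polycomb target genes and 5 of 6 T cell markers had some cover in all 10 libraries. Of the other lists, any cover in all 10 libraries was seen for 3 of 4 B cell markers, 1 of 5 granulocyte markers and 6 of 6 stromal and epithelial markers. Over all protein-coding genes this share was 26.2%.

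The 10 IL-4 genes were for the most part outside called H3K27me3 regions in every state. Il4ra, Mrc1, Clec10a and Retnla had 0% of the gene body under regions in all 10 libraries, and 57.3% of all protein-coding genes shared that property. Alox15 was the member with cover in all 10 libraries, a property of 26.2% of all genes. The remaining 5 had cover in some libraries and not in others. Per library, 2 to 4 of the 10 bodies were touched by a region, against 31.6% to 36.0% of all genes. Body cover was averaged over the 10 libraries for each gene, and the median of these means was 0.430% for the members against 0% for all genes. When each body was widened by 50 kb on either side, a stretch called the window here, the same median of means was 9.09% against 7.31%.

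**Figure D1:**
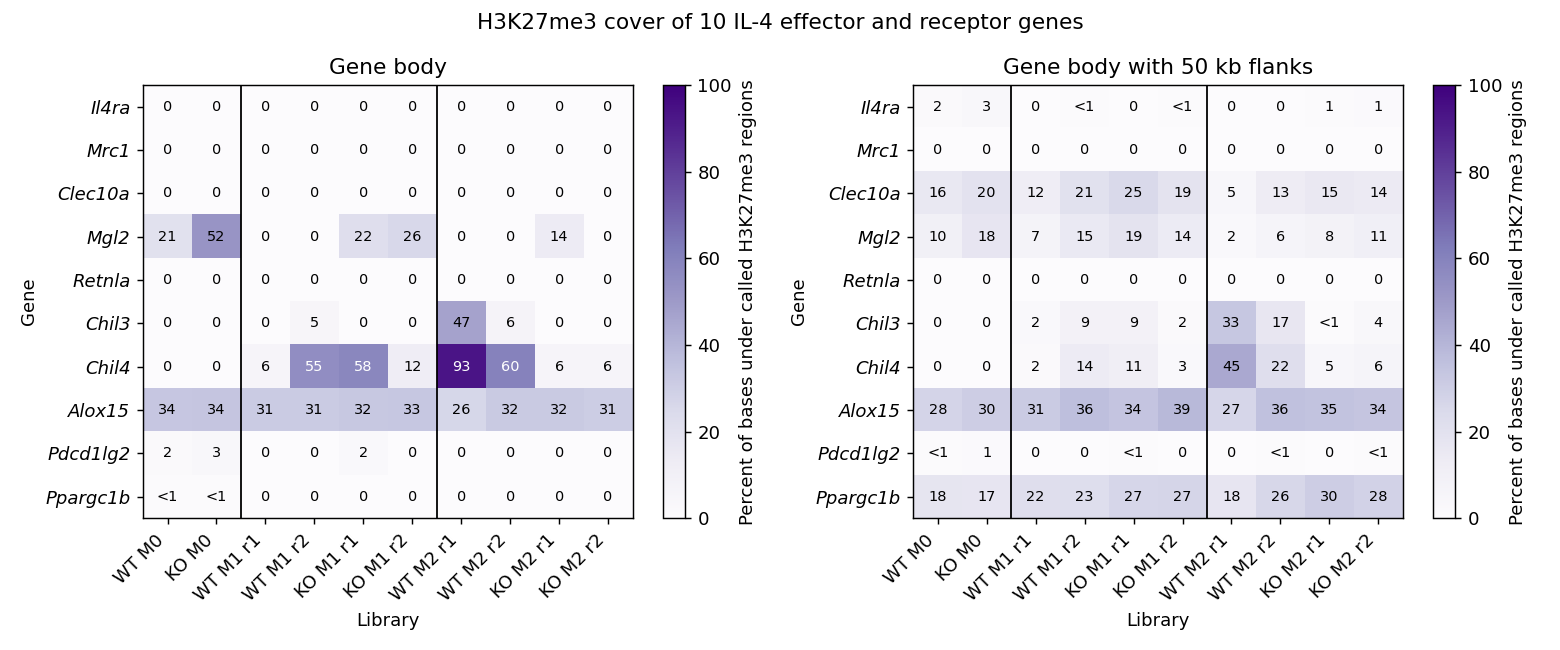
Percent of each gene under called H3K27me3 regions in each of the 10 libraries, for the body and for the body with 50 kb on either side. Alox15 has body cover of 26.3% to 33.9% in every library, Chil4 runs from 0% to 93.1%, and Retnla and Mrc1 are at 0% in both measures.

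Il4ra, the receptor chain shared by IL-4 and IL-13 signalling (chromosome 7, 125552271 to 125579474), had no region over its body. The nearest region was 7.60 kb away in WT M0 and 1.30 kb in KO M0. In M1 it was 115 and 24.6 kb away in WT, and 135 and 24.7 kb in KO. In M2 it was 136 and 116 kb away in WT, and 24.2 and 24.6 kb in KO. Both KO M2 libraries thus had a region close to the gene that neither WT M2 library had, while in M1 each genotype had 1 library with it. These near regions were small: in KO M2 they were 1.44 and 1.59 kb long with normalised tag counts (tags per 10 megatags) of 22.4 and 27.5. KO M0 also had a region at this site, 1.31 kb long with a count of 23.1, and WT M0 had none there. The detection threshold in the 10 libraries was 12.9 to 15.9 tags per 10 megatags.

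The same site appears in the authors' deposited table of regions with more H3K27me3 in KO M2, at chromosome 7, 125526947 to 125527347, 24.9 kb from the Il4ra body. The authors' deposited table gives it a log2 fold of 1.93, with p = 0.000811 and an FDR (false discovery rate) at 0.147. Among the authors' deposited tables, no other listed region came within 50 kb of any of the 10 genes. The closest listed regions in the remaining 3 authors' deposited tables were 466, 865 and 1753 kb away from the nearest member. The window of Il4ra was covered by 1.13% and 1.25% in KO M2 and by 0% in both WT M2 libraries.

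**Figure D2:**
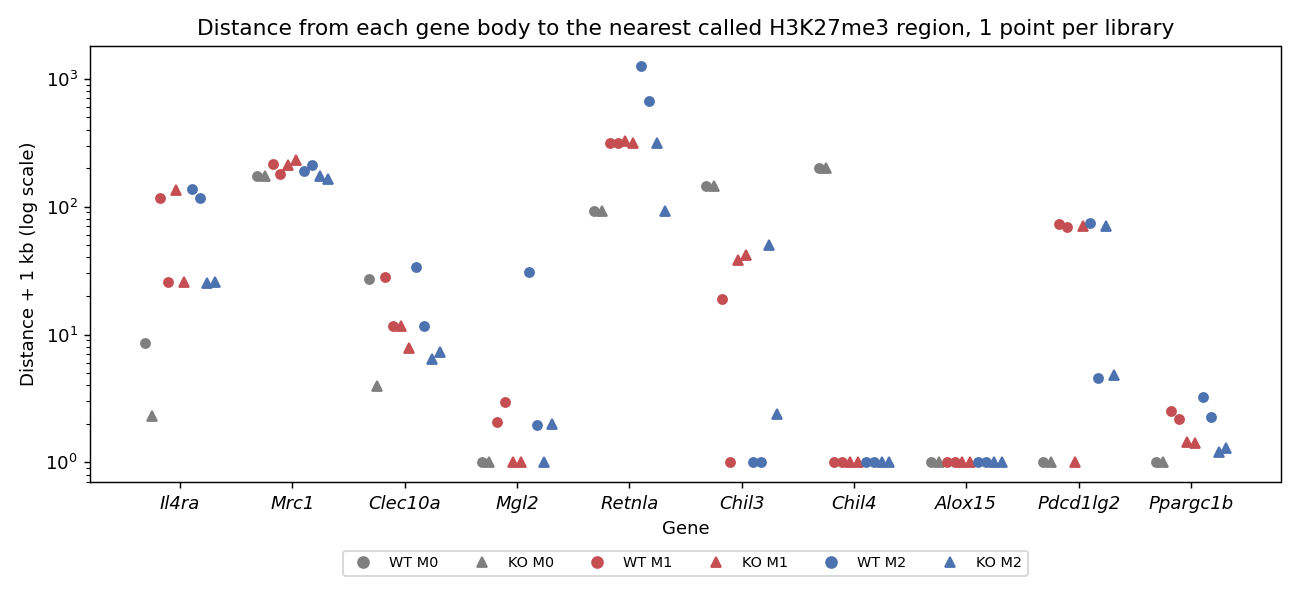
Distance from each gene body to the nearest called region in each library, plotted as distance plus 1 kb on a log axis, with circles for WT and triangles for KO and colours for M0, M1 and M2. Retnla and Mrc1 are never closer than 91.6 and 164 kb, and Alox15 sits at a distance of 0 in all 10 libraries.

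Among the lectins, Mrc1, the mannose receptor used as a surface marker of IL-4 macrophages (chromosome 2, 14229414 to 14332023), had an empty window in all 10 libraries. Its nearest region lay 164 to 231 kb away, with a median of 183 kb. Those regions were 1.00 to 1.91 kb long, at 12.9 to 46.8 tags per 10 megatags. No difference between groups could be read at Mrc1, because every value of cover was 0.

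Clec10a and Mgl2 encode a pair of related galactose-binding C-type lectins on chromosome 11 (70166623 to 70170836 and 70130125 to 70137542). Their bodies are 29.1 kb apart and their windows share 70.9 kb, so their window values are not independent. The body of Clec10a had no cover in any library. The body of Mgl2 had 20.6% in WT M0 and 52.2% in KO M0. In M1 it had 0% in both WT libraries and 22.1% and 25.5% in KO. In M2 it had 0% in both WT libraries and 13.5% and 0% in KO. In M1 the genotypes did not overlap, with a mean of 23.8% ± 2.45 in KO (SD, n = 2) and 0% in WT, and an exact permutation test of 2 against 2 cannot go below p = 0.333. A limma fit on the M1 libraries alone, on arcsine-transformed cover, gave an unadjusted p of 0.000416 and an adjusted p of 0.0838. This M1 separation was absent with only the upper 50% of regions by score, where no M1 library kept a region over the Mgl2 body.

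Over all 10 libraries Mgl2 body cover averaged 22.7% ± 19.2 among KO and 4.11% ± 9.20 among WT libraries (SD, n = 5 each). The difference was 18.5 percentage points, with p = 0.0833 by exact two-sided permutation within states and an adjusted p of 1.00. A limma fit of the same 10 libraries gave Mgl2 an unadjusted p of 0.00603 and an adjusted p of 0.62 over all genes. KO M2 replicate 2 was the only KO library with no cover of the Mgl2 body. Leaving it out removes the overlap within states by construction, and the exact permutation p was then 0.0278, the smallest that design gives. With only the upper 50% of regions by score the difference was 9.02 (exact permutation p = 0.500), and over M1 and M2 alone it was 15.3 (exact permutation p = 0.167). The regions over Mgl2 in the stimulated libraries were short, at 1.00 to 1.89 kb and 16.9 to 24.2 tags per 10 megatags, while those in M0 were 4.25 and 6.35 kb with 72.5 and 116.

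In the window, Mgl2 had 10.1% in WT M0 and 17.5% in KO M0. The M1 values were 7.14% and 15.0% in WT and 19.0% and 14.0% in KO, and the M2 values were 2.15% and 6.19% in WT and 7.87% and 10.6% in KO. The M2 values lay toward the lower end, and the groups overlapped because WT M1 replicate 1 was below both KO M2 libraries. M2 was lower by 7.08 percentage points on average (exact permutation p = 0.0857, adjusted p = 0.964, n = 4 each). Clec10a had window cover of 11.8% and 20.7% in WT M1, 25.0% and 18.9% in KO M1, 4.55% and 13.0% in WT M2, and 15.3% and 14.1% in KO M2. M2 minus M1 was -7.33 percentage points for Clec10a (exact permutation p = 0.114, n = 4 each). Both differences reached p = 0.0286 in the exact permutation test without WT M1 replicate 1, at -9.29 for Mgl2 and -9.75 for Clec10a. That library made the groups overlap at both genes, and it is one of the pair that stood apart on the X chromosome. Without the other of that pair, WT M2 replicate 1, the Clec10a difference was -4.93. Over all libraries left out in turn, the Mgl2 difference ranged from -9.29 to -5.33. With flanks of 20 kb the Mgl2 difference was -14.2 (exact permutation p = 0.0286) and the Clec10a difference was 0.133. With the upper 50% of regions by score they were -3.78 for Mgl2 and -1.23 for Clec10a (exact permutation p = 0.343 and 0.686).

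By genotype the window of Mgl2 was higher in KO by 5.70 percentage points (exact permutation p = 0.0556, adjusted p = 0.650, n = 5 each), and that of Clec10a by 5.36 (exact permutation p = 0.0833), or by 1.79 with the upper 50% of regions. The stretches called in all 10 libraries were 4.08 kb in the Clec10a window and 1.18 kb in the Mgl2 window. The stretch in the Mgl2 window lies in Asgr2, a gene of the hepatic asialoglycoprotein receptor, which had 17.0% to 56.0% body cover. That in the Clec10a window lies between 36.8 and 49.6 kb from the low-coordinate end of Clec10a and reaches Slc16a11, a gene of the monocarboxylate transporter family, which had 94.3% to 100% body cover in all 10 libraries.

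**Figure D3:**
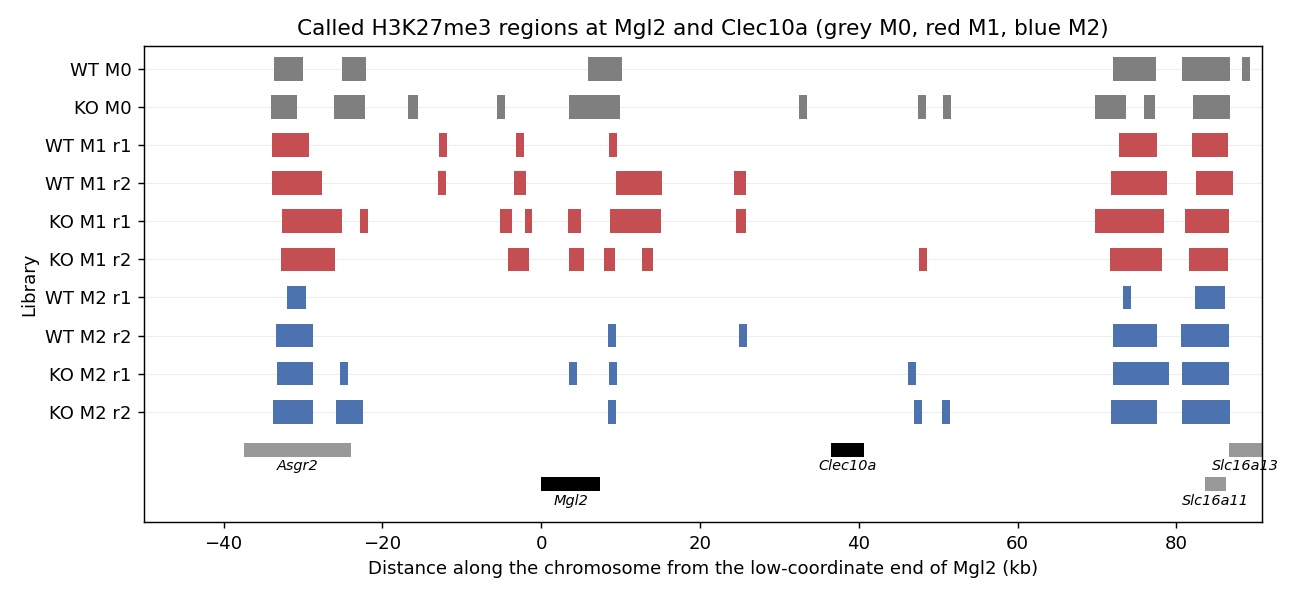
Called regions of the 10 libraries (rows; grey M0, red M1, blue M2) along the Mgl2 and Clec10a locus, with distance from the low-coordinate end of Mgl2 in kb and gene bodies drawn below. Regions recur at Asgr2 and Slc16a11 in all rows, and those over Mgl2 occur in 5 of 10 rows.

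Retnla, which encodes the secreted resistin-like molecule alpha (chromosome 16, 48842609 to 48844461), had the largest median distance to a called region of the 10 genes. Its window was empty in all 10 libraries, and its nearest region was 91.6 to 1260.4 kb away, with a median of 315 kb. WT M2 libraries were at the far end, at 1260.4 and 669 kb, and KO M2 libraries were at 315 and 91.6 kb. The M1 libraries lay at 315 and 315 kb in WT and 323 and 315 kb in KO, and M0 at 91.7 and 91.8 kb. The regions themselves were weak, at 12.9 to 39.8 tags per 10 megatags. The family members Retnlb and Retnlg, on either side within 50 kb, also had 0% body cover in all 10 libraries.

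Chil3 and Chil4 encode the chitinase-like proteins Ym1 and Ym2, which IL-4 macrophages secrete (chromosome 3, 106147554 to 106167564 and 106201491 to 106219479). They lie 33.9 kb apart and share 66.1 kb of window. Chil4 had the widest range of body cover of the 10 genes. It was at 0% in both M0 libraries, where the nearest region was 199 kb away. In M1 it was at 5.56% and 55.4% in WT and at 58.1% and 11.8% in KO. In M2 it was at 93.1% and 60.0% in WT and at 5.56% in each KO library. The 2 WT M2 libraries thus stood above both KO M2 libraries, while the M1 genotypes overlapped.

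In WT M2 replicate 1 a single region of 17.3 kb with 304 tags per 10 megatags lay over most of Chil4, and in WT M2 replicate 2 the regions over it were 6.77 and 4.03 kb long, with 105 and 69.7. In KO M2 a single 1.00 kb region with 13.9 or 18.7 tags per 10 megatags was present. Mean body cover among M2 libraries was 76.5% ± 23.4 for WT against 5.56% ± 0 for KO (SD, n = 2 each), a difference of -71.0 percentage points with exact permutation p = 0.333, the smallest that 2 against 2 allows. limma on the M2 libraries alone gave Chil4 an unadjusted p of 0.0293 and an adjusted p of 0.484. In M1 the difference was 4.47 (exact permutation p = 0.667, n = 2 each). WT M2 replicate 2, at 60.0%, was above both KO M2 libraries also when the WT library that stood apart is left out. Across all 10 libraries KO minus WT was -26.6 percentage points (16.2% ± 23.8 against 42.8% ± 39.4, SD, n = 5 each; exact permutation p = 0.278, adjusted p = 1.00). It was -16.2 on leaving out WT M2 replicate 1 and -10.4 with the upper 50% of regions by score (exact permutation p = 0.667).

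Chil3 body cover was 0% in both M0 libraries, 0% and 5.00% in WT M1, 0% in both KO M1 libraries, 47.2% and 6.25% in WT M2, and 0% in both KO M2 libraries. Cover was thus seen in 3 WT libraries and in no KO library. KO minus WT was -11.7 percentage points over all 10 libraries (exact permutation p = 0.167, n = 5 each), -3.19 without WT M2 replicate 1, and -1.25 with the upper 50% of regions. The longest of the 3 regions over Chil3 in WT M2 replicate 1 were 4.55 and 4.56 kb, and those in the other 2 libraries were 1.00 and 1.25 kb long.

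Between states neither gene differed beyond its spread. Chil4 body cover averaged 41.0% ± 43.1 over M2 against 32.7% ± 27.9 over M1 (SD, n = 4 each; exact permutation p = 0.83). The sign of this difference turned to -8.99 without WT M2 replicate 1 and to -0.698 without WT M1 replicate 1. Chil3 was higher in M2 by 12.1 percentage points (exact permutation p = 0.429), and by 0.833 without WT M2 replicate 1. The windows followed the bodies: that of Chil4 held 44.6% and 22.1% in WT M2 and 4.51% and 6.07% in KO M2, and that of Chil3 held 33.0% and 16.7% in WT M2 and 0.765% and 3.57% in KO M2. The M2 tag totals were 20.9 and 17.6 megatags in WT and 18.3 and 14.2 megatags in KO. Of these tags, 41.3% and 56.5% lay in regions in WT M2, and 61.0% and 61.3% in KO M2. Estimated fragment lengths were 178 and 186 bases in WT M2 and 190 and 188 in KO M2. In M1 the libraries with higher Chil4 cover, WT M1 replicate 2 and KO M1 replicate 1, were at 178 bases. WT M1 replicate 1 and KO M1 replicate 2 were at 190. The part of these properties in the Chil4 and Chil3 values was not tested.

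**Figure D4:**
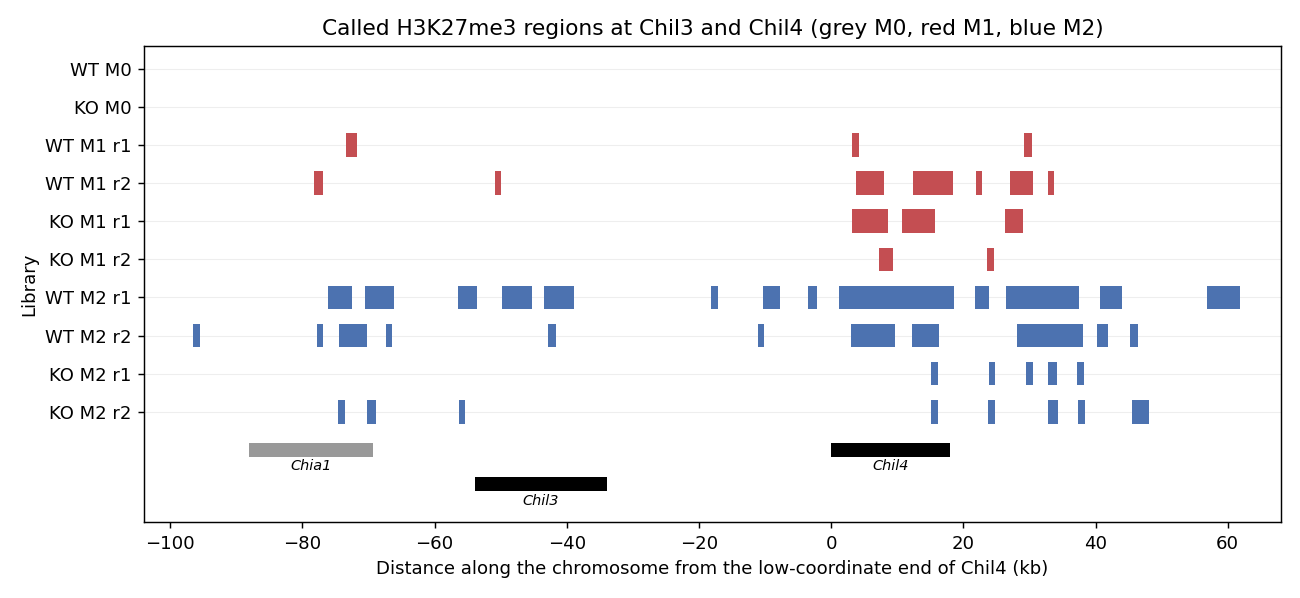
Called regions of the 10 libraries (rows; grey M0, red M1, blue M2) along the Chil3 and Chil4 locus, with distance from the low-coordinate end of Chil4 in kb. Both M0 rows are empty, and the region of 17.3 kb over Chil4 in WT M2 replicate 1 is the longest in the map.

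The genes on other chromosomes whose body cover was closest to that of Chil4 over the 10 libraries were Lipf, Prss2 and Gm9631, at a mean absolute difference of 11.1, 11.2 and 12.5 percentage points. A gene at 0% throughout would differ from Chil4 by 29.5. Lipf had 65.8% and 23.7% in WT M2 and 5.38% and 6.42% in KO M2. Prss2 had 30.3% and 45.6% in WT M2 and 0% in both KO M2 libraries. The comparison was made over 20900 genes and is a description of likeness only.

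Alox15, a lipoxygenase that oxidises polyunsaturated fatty acids and is strongly induced by IL-4 in human monocytes and mouse resident macrophages (chromosome 11, 70344147 to 70390538), was the one member with a broad H3K27me3 domain over its body in all 10 libraries. Its body cover was 33.5% in WT M0 and 33.9% in KO M0. In M1 it was 31.4% and 31.3% in WT and 32.5% and 32.9% in KO. In M2 it was 26.3% and 31.8% in WT and 31.9% and 30.7% in KO. The values lay close together in all states, with WT M2 replicate 1 the lowest. The strongest region over the gene in each library was 13.5 to 50.1 kb long and held 305 to 1515 tags per 10 megatags, with a median of 780. This put it at the 92.3 to 98.4 percentile of its own list. Each M0 library also had a separate region of 1.00 kb in the body, with 23.0 tags per 10 megatags in WT and 16.6 in KO.

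A total of 32.9 kb of the Alox15 window was called in all 10 libraries, between 34.4 kb before and 12.2 kb after the low-coordinate end of the body. Of this, 12.2 kb lay in the body, which RefSeq draws from a curated and a predicted transcript together, so the covered share depends on that annotation. The neighbour Alox12e, another lipoxygenase gene, was 100% covered in all 10 libraries. In some libraries this domain was a single region of 45.4 to 50.1 kb, and in others it was broken between Alox12e and Alox15. M2 minus M1 for the Alox15 body was -1.82 percentage points (exact permutation p = 0.171, n = 4 each) and KO minus WT was 1.53 (exact permutation p = 0.0833, adjusted p = 1.00, n = 5 each). Without WT M2 replicate 1, the lowest library, these were -0.537 and 0.535. KO minus WT was 2.36 without WT M2 replicate 2, at the smallest exact permutation p of 0.0278. That library, at 31.8%, was the only WT library above a KO library of its state (30.7%), so leaving it out removes the overlap by construction. KO minus WT was -5.36 with the upper 50% of regions by score.

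Pdcd1lg2 encodes PD-L2, the ligand by which macrophages restrain T cells through PD-1 (chromosome 19, 29410919 to 29472927). Its body was touched in WT M0 (1.61%), KO M0 (3.23%) and KO M1 replicate 1 (2.46%), and it was at 0% in the other 7 libraries. Each touching region was 1.00 to 1.52 kb long, at 15.5 to 19.3 tags per 10 megatags, so these values stand close to the detection threshold. Cd274, the neighbouring gene of the related ligand PD-L1, had 0% body cover in all 10 libraries. KO minus WT for the Pdcd1lg2 body was 0.814 percentage points (exact permutation p = 0.500, n = 5 each). It was 0.358 without KO M1 replicate 1 and 0 with the upper 50% of regions by score.

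Ppargc1b encodes a coactivator of nuclear receptors that raises mitochondrial oxidative metabolism in IL-4 macrophages (chromosome 18, 61291445 to 61400756). Its body was nearly free of cover, at 0.725% in WT M0, 0.573% in KO M0 and 0% in the 8 stimulated libraries. A broad domain began just beyond the high-coordinate end. In M1 the nearest region began 1.54 and 1.17 kb from the body in WT and 0.443 and 0.422 kb in KO. In M2 it began 2.24 and 1.25 kb from the body in WT and 0.199 and 0.304 kb in KO. In both states each KO edge was closer than each WT edge. Apart from WT M2 replicate 1, where it was 3.56 kb long, that region was 41.9 to 44.8 kb long in the stimulated libraries, with 771 to 1015 tags per 10 megatags. In M0 the same stretch was broken into shorter regions, the nearest 6.02 and 4.87 kb long. A total of 20.4 kb of the window, none of it in the body, was called in all 10 libraries.

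The Ppargc1b window held 17.7% in WT M0 and 17.2% in KO M0. It held 22.0% and 22.6% in WT M1 and 26.6% and 27.2% in KO M1. It held 17.5% and 26.1% in WT M2 and 30.1% and 28.2% in KO M2. KO was above WT within M1 and within M2, and the M0 libraries went slightly the other way. The means were 26.9% ± 0.420 against 22.3% ± 0.426 in M1 and 29.2% ± 1.34 against 21.8% ± 6.06 in M2 (SD, n = 2 each). Over the 8 stimulated libraries the difference was 6.02 percentage points, at p = 0.0556 by exact permutation within states, the smallest that design gives, and at an adjusted p of 0.852. Over all 10 libraries it was 4.71 (exact permutation p = 0.0556, adjusted p = 0.650, n = 5 each), and 2.99 without WT M2 replicate 1 (exact permutation p = 0.0833). Ppargc1b was the 1 member of 10 whose genotypes were apart with KO higher in both stimulated states, against 5.04% of all genes. M2 and M1 did not differ for this window beyond their spread, at 0.882 percentage points (exact permutation p = 0.800, n = 4 each), and the sign turned without KO M2 replicate 1 (-0.668) or without KO M2 replicate 2 (-0.0344). With the upper 50% of regions by score, M2 was higher by 17.8 percentage points and the groups did not overlap (exact permutation p = 0.0286).

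**Figure D5:**
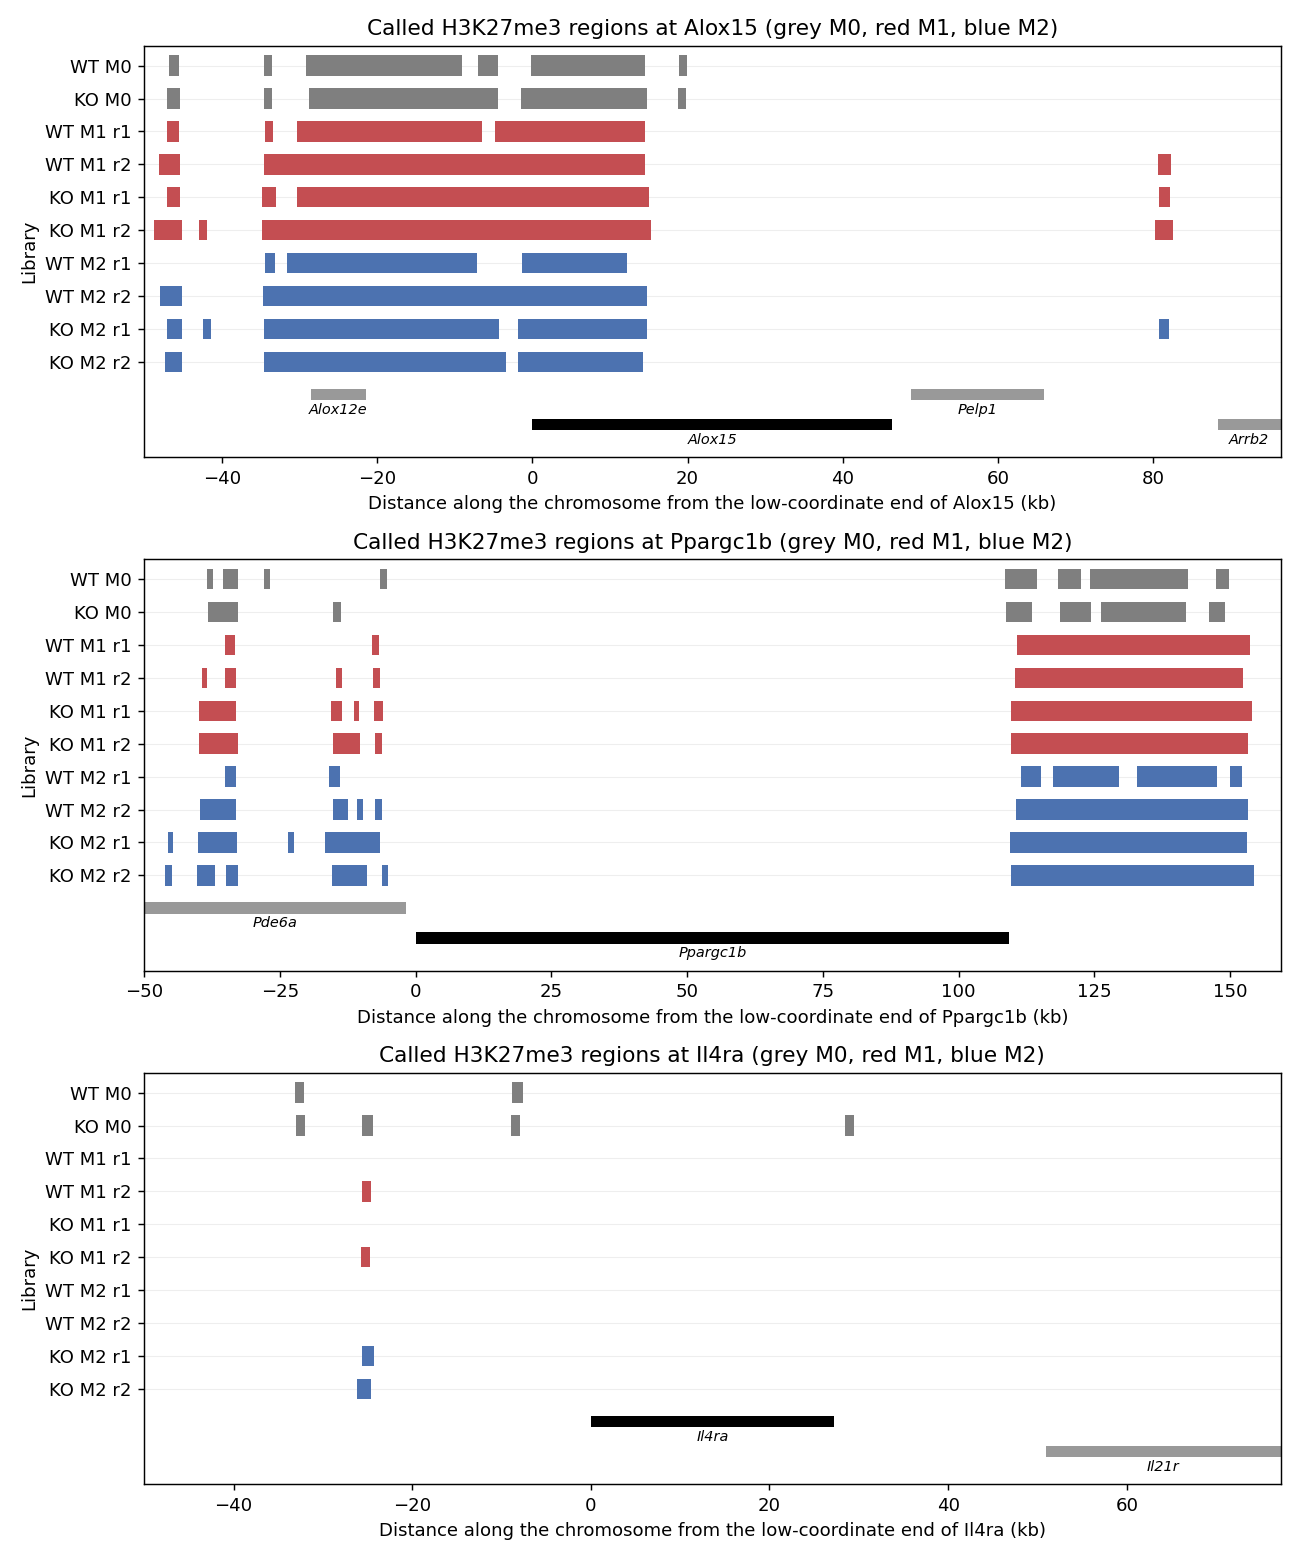
Called regions of the 10 libraries (rows; grey M0, red M1, blue M2) around Alox15, Ppargc1b and Il4ra, with distance from the low-coordinate end of each gene in kb. Regions cover Alox12e and the low-coordinate end of Alox15 in all rows, the Ppargc1b domain begins beyond the gene's far end in the 8 stimulated rows, and Il4ra has small scattered regions or none.

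Over the whole set, 0 of the 10 genes passed a test between groups after adjustment. For M2 against M1, 0 of 10 bodies had groups that did not overlap, where 0.347% of all genes had M2 above M1 and 0.635% had M2 below M1. For KO against WT within every state, 0 of 10 bodies were separated, where 1.16% of all genes had KO above WT and 0.270% had KO below WT. In the windows the count was again 0 of 10 in each comparison. The shares over all genes there were 0.471% with M2 above and 2.37% with M2 below, and 3.84% with KO above and 0.512% with KO below. With shares this low, a count of 0 of 10 is near the background. No member had an unadjusted exact permutation p under 0.05 in these 4 comparisons, and no gene of the genome had an adjusted p under 0.05 by that test. limma with Benjamini-Hochberg adjustment called 0 members in each of the 4. Over all genes with cover it called 0.239% in bodies by state, 0.0107% in bodies by genotype, 0.0114% in windows by state and 0% in windows by genotype. Its unadjusted p was under 0.05 for Mgl2 in the body by genotype (0.00603), in the window by state (0.0414) and in the window by genotype (0.0155).

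Within M2 alone, where each genotype has 2 libraries and the exact permutation test cannot go below p = 0.333, 4 windows were higher in both KO libraries (Il4ra, Clec10a, Mgl2 and Ppargc1b), against 21.4% of all genes. The windows of Chil3 and Chil4, which overlap, were lower in both KO libraries, against 9.42% of all genes. For bodies in M2 the count was 0 with KO above (9.60% of all genes) and 2 with KO below, Chil3 and Chil4 again (3.64% of all genes). Within M1 alone, Mgl2 and Alox15 bodies were higher in both KO libraries, against 4.46% of all genes, and 0 bodies were lower, against 3.13%. In M1 windows, Ppargc1b alone was higher, against 13.5% of all genes, and 0 were lower, against 5.41%. Over M1 and M2 together, 0 bodies were separated, against 1.71% of all genes with KO above and 0.690% with KO below, and 0 windows had KO below, against 1.48%. limma fitted within 1 state called 0 members: over all genes with cover it called 1.04% of bodies in M2, 0.339% of bodies in M1 and 0% of windows in either. Its unadjusted p was under 0.05 in M2 for the Chil4 body (0.0293) and for the windows of Chil3 (0.0179), Chil4 (0.0245) and Il4ra (0.0221), and in M1 for the Mgl2 body (0.000416).

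The wider IL-4 pathway gave a reference for these genes. Of 46 other genes of the pathway, 16 (34.8%) had no body cover in any library, against 57.3% of all genes. Among them were the kinase gene Jak1, the transcription factor gene Stat6 and the arginase gene Arg1, named after their values were seen. Cover in all 10 libraries was seen for 14 (30.4%), against 26.2% of all genes. Among these were the chemokine genes Ccl22 (17.5% to 100%) and Ccl24 (100% in each library) and the transcription factor gene Irf4 (15.3% to 22.2%), likewise named after their values were seen. The median over these 46 genes of their mean body cover in the 10 libraries was 6.58%. In M2 against M1, 0 of 46 were separated with M2 above and 1 with M2 below, against 0.347% and 0.635% of all genes. The 1 was the zinc-finger factor gene Egr2 (50.3% ± 10.4 against 83.2% ± 1.75, SD, n = 4 each; exact permutation p = 0.0286, adjusted p = 1.00).

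In KO against WT, 2 of 46 were separated with KO above and 0 with KO below, against 1.16% and 0.270% of all genes. The first was Il4 itself, the cytokine gene, with body cover of 53.5% to 72.6% (median 69.4%) in KO and 0% to 56.4% (median 20.3%) in WT. Its difference was 42.6 percentage points (exact permutation p = 0.0278, adjusted p = 1.00, n = 5 each), and the separation held within each state although the whole ranges overlap. The WT values of 0% were those of the 2 WT libraries that stood apart, WT M1 replicate 1 and WT M2 replicate 1. Differences in window cover between replicates 1 and 2 correlated at 0.78 between WT M1 and WT M2. These values of 0% may therefore not be independent, although the test counts them so. The other was Kdm6b, the gene of an H3K27 demethylase, with 17.6% ± 10.8 for KO against 9.08% ± 8.82 for WT (SD, n = 5 each), and the difference was 8.50 (exact permutation p = 0.0278, adjusted p = 1.00). Its M1 values were 3.47% and 8.68% in WT and 9.45% and 15.8% in KO. Its M2 values were 1.31% and 8.09% in WT and 8.18% and 19.4% in KO. The lowest WT values were again those of WT M1 replicate 1 and WT M2 replicate 1, and the closest M2 values, 8.09% and 8.18%, were nearly equal. In the windows, 6 of the 46 were separated with KO above and 0 with KO below, against 3.84% and 0.512% of all genes, and the adjusted p was not under 0.638 for any gene. The 6 were Il4 and its chromosomal neighbour Il13, Stat6, Socs1, Pparg and Ccl17, named after their values were seen. The list was chosen with earlier results of these data known, and neighbouring genes do not count independently. The counts of this list, for bodies and for windows, are therefore descriptions and cannot show an excess over all genes. The Stat6 window, for example, held 3.09% ± 1.56 for KO against 1.11% ± 0.289 for WT (SD, n = 5 each). By state the windows gave 0 with M2 above and 1 with M2 below, Egr2 again, against 0.471% and 2.37% of all genes.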

How the data were processed

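H3K27me3 was read in 10 libraries. The submitters' processing notes name HOMER 4.8, DiffBind 2.0.2, Bowtie2 2.4.2, deepTools 3.5.1 and SAMtools 1.10, and the build mm10. The authors called regions in each library with HOMER findPeaks in region mode, per the file headers, which name no input control. The headers give a peak size of 1000 bp, a minimum peak distance of 2500 bp, peaks stitched into regions of variable length, and an FDR threshold of 0.001. Closer neighbouring regions do occur in the lists. The signal used is the authors' normalised tag count per 10 megatags. Each list also holds, per the file headers, the authors' score and a ratio, the clonal fold change. The authors' deposited tables of KO against WT give a log2 fold, a p-value and a false discovery rate, and the model behind them is not given in the sources used here. The members and lists were chosen with earlier results of these data known.

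Overlapping regions were merged, and the percent of each RefSeq gene body (GRCm38.p6), and of the body with 50 kb on either side, under regions was computed for 21883 protein-coding genes with Python 3.11.15, numpy 2.4.6 and pandas 2.3.3. Exact two-sided permutation compared 4 M2 with 4 M1 libraries (70 arrangements, smallest p 0.0286) and 5 KO with 5 WT within states (72 arrangements, smallest p 0.0278), with Benjamini-Hochberg adjustment over all genes. A gene counted as separated when groups did not overlap, within each state for genotype. Each library was counted as an independent unit, and the sample titles do not name the animal of origin. limma 3.58.1 in R 4.3.3 was fitted on arcsine square-root cover as an alternative, and within M1 and within M2 as alternatives added after seeing the data. In those 2-against-2 fits limma offset genes with zero variance. The steps were tested on simulated data. Named genes beyond the 10 were pathway genes separated by body cover, and the 3 genes on other chromosomes closest to the member with the widest range. Other pathway genes are marked as named after their values were seen. Alternatives were other flanks, the upper 50% of regions by score, gaps of 2500 bp closed, a replicate block, single states and leaving out each library. Exons, introns and untranslated regions were not analysed here.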

Additional observations from a re-analysis of the deposited data

Results flagged for a closer look

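In 25 groups of 4 libraries in which cover was above 0, 5 had a single library far from the other 3. The usual chance rate of this gap test, about 1 in 20 groups, does not hold here: in 4 of the 5 the other 3 libraries were all at 0, so that any library with cover stands apart by construction. Chil3 body cover was 47.2% in WT M2 replicate 1 against 0 to 6.25% in the other M2 libraries, and 5.00% in WT M1 replicate 2 against 0 in the other M1 libraries. Mgl2 body cover was 13.5% in KO M2 replicate 1 against 0 in the other M2 libraries. For Pdcd1lg2, KO M1 replicate 1 had 2.46% of the body and 0.941% of the window covered, against 0 in the other M1 libraries.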

How the results depend on the processing

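For bodies, the count of members separated between KO and WT, 0 of 10, was 2 in M2 alone (both lower in KO) and 2 in M1 alone (both higher). For windows it was 2 with 100 kb flanks, 1 in M1 and M2 together, 6 in M2 alone (4 higher, 2 lower) and 1 in M1 alone. The window count for M2 against M1, 0, was 1 with the upper 50% of regions by score (Ppargc1b, higher in M2, its M1 domain left out by the score). It was 1 with 20 kb flanks (Mgl2, lower) and 2 with the replicate block (Clec10a and Mgl2, lower). In limma with the block these 2 had an unadjusted p of 0.00318 and 0.00452 and an adjusted p of 0.332 and 0.347. With 1 library left out, the counts ranged from 0 to 0 for bodies by state and from 0 to 2 in each of the other 3 comparisons.

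Replicate numbers were not taken as pairing the samples, because not every same-numbered pair deviated together. The correlation of deviations was 0.78 between WT M1 and WT M2, whose replicate 1 libraries also share the cover of the X chromosome. It was 0.02 between KO M1 and KO M2, 0.03 between WT M1 and KO M1, 0.29 between KO M1 and WT M2, -0.13 between WT M1 and KO M2, and -0.16 between WT M2 and KO M2. The crossed pairing of M2, added after seeing the data, gave 3 separated bodies and 6 separated windows. This pairing asks only that both single pairs differ in the same direction. Its share over all genes was not computed, so these counts are not a result about the members.

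Signs that turned were these, as percentage points, and the cause was not tested. With the upper 50% of regions, M2 minus M1 was 3.37 for the Mgl2 body and -0.110 for the Il4ra window, and KO minus WT was -5.36 for the Alox15 body and -0.157 for the Pdcd1lg2 window. With 5 kb added to bodies, M2 minus M1 was 0.260 for Pdcd1lg2 and KO minus WT was 0.654 for Ppargc1b. Window differences of M2 minus M1 turned to 0.133 for Clec10a with 20 kb flanks, and to -1.21 for Pdcd1lg2 and -0.866 for Ppargc1b with 100 kb flanks. KO minus WT was 4.47 for the Chil4 body in M1 alone and -0.0843 for the Pdcd1lg2 window in M2 alone. With 1 library left out, M2 minus M1 ranged from -8.99 to 20.2 for the Chil4 body, and in the windows from -0.0152 to 0.402 for Il4ra, -0.0296 to 0.351 for Pdcd1lg2 and -0.668 to 3.54 for Ppargc1b. Of 410 alternatives over 27 member differences, 10 reached an unadjusted exact permutation p under 0.05. Short regions near the detection threshold limit the values: 66 of the 229 regions in these windows (28.8%) were a single window of 1000 bp.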
